A study of Mus musculus with 16 samples.

Results

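The genes described here carry the cAMP signal that follows stimulation of beta adrenergic receptors, in bone marrow of mice with and without donor marrow that lacks those receptors. The set held 42 genes of 23042 gene names measured. They were chosen by gene name for their place in the pathway, with earlier results of these data known. They are 5 G protein subunits, 5 adenylyl cyclases, 6 subunits of protein kinase A (PKA), 7 genes for CREB, its relatives and its coactivators, 7 phosphodiesterases, 4 arrestins and receptor kinases, 2 exchange factors of Rap and 6 A-kinase anchoring proteins (AKAPs). All 42 were measured, by 81 of the 55681 probes on the array, and 72 of these probes passed the filter on dim signals.

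Beta receptors couple to the stimulatory G protein, which switches on adenylyl cyclase, the enzyme that makes cAMP. Cyclic AMP frees the catalytic subunits of PKA from their regulatory subunits, PKA phosphorylates CREB, and CREB with its coactivators turns on genes that hold cAMP response elements; cAMP also opens Rap exchange factors of the Epac kind. Phosphodiesterases break cAMP down, receptor kinases and arrestins silence the receptors, and AKAPs hold PKA at particular places in the cell. In bone marrow, sympathetic nerves release noradrenaline, and beta receptors are found on blood-forming cells and on the stroma around them.

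Total RNA from bone marrow was read on Agilent mouse arrays with 1 dye, Cy3, from 8 mice in each of 2 groups, each mouse on its own array. The KO chimeras were C57BL/6J mice that were lethally irradiated with 950 Rad and given whole bone marrow of Adrb1tm1BkkAdrb2tm1Bkk/J mice, which lack both named beta receptor genes, by 1 retro-orbital injection. The labels give a ratio of 1:4 of donor to C57BL/6J, without saying whether it counts cells or mice. Controls were C57BL/6J mice that were also irradiated with 950 Rad; no donor strain is given for them, although the treatment text shared by all samples speaks of reconstituted mice that recovered for 2 to 3 months. Age and sex are not given in the sources used here. Stromal and other cells that survive irradiation in the hosts remain C57BL/6J in both groups, so a chimera is a model of loss in blood-forming cells. Loss of the receptors, the genetic background of the donor strain and the graft cannot be told apart in this design. The targeted gene Adrb1 gave no check of the genotype, since the position of its probes relative to the deleted part is not known here. Its brighter probe differed by -0.00041 ± 0.11 (log2 difference, KO chimera minus control, ± SE, adjusted p = 0.999), and its dimmer probe, above background on 7 KO chimera and 6 control arrays, by 0.95 ± 0.30 (adjusted p = 0.0276).

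Arrays of KO chimeras had 75th percentiles of the signal between 127 and 545, those of controls between 231 and 558, and 27732 to 37080 against 29279 to 38726 probes were well above background. Arrays of a group correlated at 0.975 or more, and none was set aside. Markers of neutrophils and red cells, which make up much of marrow, were all measured, 14 of 14 neutrophil and 11 of 11 erythroid genes, and 0 of either list passed limma's test (2 and 1 at an unadjusted p under 0.05). Markers of other cell types did differ: 10 of 13 megakaryocyte and platelet genes were lower in KO chimeras, as were 4 of 7 macrophage genes and 5 of 8 eosinophil, basophil and mast cell genes. Of all genes tested 12.1% were lower. Further lists with changed genes, given below, moved upwards or in both directions. Precision is limited by the 8 mice per group.

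Read from its brightest probe, a cAMP pathway gene passed the test about as often as other genes did. Of the 42 members 7 passed the test (16.7%), 1 higher and 6 lower in KO chimeras, whereas 22.3% of all genes tested did (10.2% higher and 12.1% lower). Pde4a and Crtc1, which encode a cAMP phosphodiesterase and a CREB coactivator, were the members whose 8 KO chimera values all lay outside the 8 control values, 2 of 42 members (4.76%) against 6.14% of all genes. The other members that fell were Adcy9, Prkacb, Rapgef2 and Akap11, each by less than 0.40 on the log2 scale, and Adcy3, a dim adenylyl cyclase gene, rose. In marrow as a whole, fewer cells of a type and less RNA per cell cannot be told apart.

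The median log2 difference over the 42 members was -0.08, beside -0.02 over all genes tested, and 29 members (69.0%) lay below 0, beside 52.8% of all genes. Differences were small: the median absolute difference was 0.13 for the members and 0.19 for all genes, and 1 member exceeded 0.5 in size where 17.1% of all genes did. At an unadjusted p under 0.05 there were 14 members (33.3%), beside 33.9% of all genes. For 30 of the 35 members that did not pass, the 95% confidence interval of the difference lay within 0.5 of 0 on the log2 scale, and over all 35 the bounds ran from -0.76 to 0.60. On 39 members the probe was well above background on all 16 arrays; the exceptions were Adcy3, Adcy4 and Prkar1b.

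**Figure D1:**
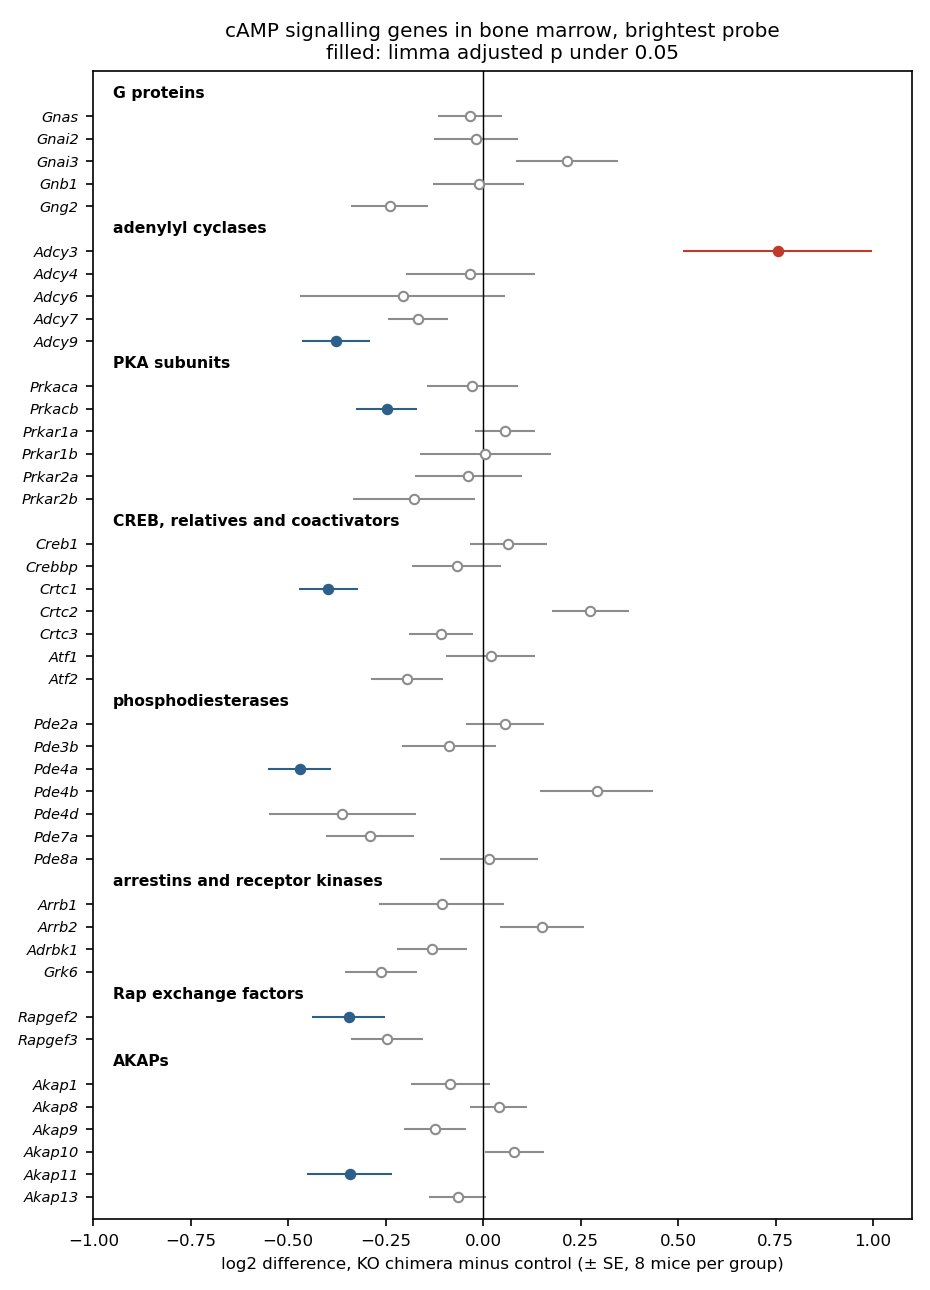
Log2 difference in signal, KO chimera minus control, for each of the 42 cAMP pathway genes, ordered by role; points are the fitted differences from the brightest kept probe and bars are ± SE, 8 mice per group. Filled points passed limma at adjusted p under 0.05: Adcy3 at 0.75 on the right, and 6 genes between -0.47 and -0.25 on the left.

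What each array reads is a stretch of 60 bases of 1 transcript, and the call of a member rests on that stretch. The first 30 bases of the probes that read the 7 changed members, and of the pair of Pde4d probes that moved unlike each other, are shown for that reason, 5′ to 3′ on the strand of the gene, with their mm9 positions. Whether a probe lies in coding sequence or an untranslated end was not analysed here.
Adcy3, chr12:4211535-4211564, plus strand: tgcattagccatgaaggacacgctcacaaa
Adcy9, chr16:4287708-4287737, minus strand: ttcatttccacccatttcggttttccttta
Prkacb, chr3:146392869-146392898, minus strand: aaagaagccgtggcttatgggtattgctgt
Crtc1, chr8:72906290-72906319, minus strand: gcagacgcttctttgtatttttgcgccctt
Pde4a, chr9:21017591-21017620, plus strand: ttgatcaattggtccgtcgattgacaatca
Rapgef2, chr3:78866496-78866525, minus strand: gatggtagaaatgtactatgtttatgcttc
Akap11, chr14:78892286-78892315, minus strand: gagtttgctcatttagtgcactaaggtctt
Pde4d brightest probe, chr13:110741493-110741522, plus strand: gcggaagaggaaagccagcctgaaacttgc
Pde4d dim probe, chr13:109910773-109910802, plus strand: cacggcagccatttaccttaactgacaaaa

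In what follows a level is the log2 signal of a probe over the 75th percentile of its array, so that 0 is the level of that percentile, and levels of different probes are not comparable. A difference is KO chimera minus control on the same scale, with the SE of the fit and limma's adjusted p.

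No G protein subunit passed limma's test, and 1 of the 5 had an unadjusted p under 0.05. Gnas, which encodes the stimulatory alpha subunit that beta receptors act through, had levels from 5.06 to 5.60 with a median of 5.24 in KO chimeras, and from 5.20 to 5.46 with a median of 5.34 in controls. The groups overlapped, and the difference of -0.03 ± 0.08 (adjusted p = 0.819) had a 95% interval from -0.21 to 0.14. Gnai2, an inhibitory alpha subunit that also serves chemokine receptors, differed by -0.02 ± 0.11, and the beta subunit gene Gnb1 by -0.01 ± 0.12. Gnai3, another inhibitory subunit, differed by 0.22 ± 0.13 (adjusted p = 0.266). The gamma subunit gene Gng2 lay lowest of the 5, at -0.24 ± 0.10 (adjusted p = 0.0958), with 4 KO chimeras below the lowest control. It passed without KO chimera 4 (-0.28, adjusted p = 0.046). Further kept probes of Gnas, which read other transcripts of that locus, differed by 0.22 and -0.44 and did not pass. The probe at -0.44 was well above background on 4 KO chimera and 6 control arrays. It was thus kept through the controls alone, and the size of its difference is approximate.

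Adenylyl cyclases moved in both directions. Adcy9, a cyclase of broad expression, had levels from 0.14 to 0.76 with a median of 0.40 in KO chimeras and from 0.61 to 0.96 with a median of 0.78 in controls. A single KO chimera reached into the control range and the other 7 lay below every control. The difference was -0.38 ± 0.09 (1.30-fold lower, adjusted p = 0.00477), and it passed without any 1 of the 16 mice. Adcy7, a cyclase known from blood cells, did not pass (-0.17 ± 0.08, adjusted p = 0.13), although 5 KO chimeras lay below all controls. Adcy6 and Adcy4 did not pass either, at -0.21 ± 0.26 and -0.03 ± 0.16; the Adcy4 probe was well above background on 3 KO chimera and 7 control arrays.

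Adcy3 was the one member that rose, and it was dim. Its levels ran from -4.41 to -3.14 with a median of -3.61 in KO chimeras and from -5.20 to -3.77 with a median of -4.35 in controls, and its probe was well above background on 7 KO chimera and 4 control arrays. The probe was thus kept through the KO chimeras alone, and the size of the difference is approximate: 0.75 ± 0.24 (1.69-fold, adjusted p = 0.0329). The difference was present on the arrays scanned on 1 day: there the 4 KO chimeras lay from -3.32 to -3.14 and the 4 controls from -5.20 to -3.92, while on the other day the ranges were -4.41 to -3.90 and -4.76 to -3.77 and the difference was 0.06 (adjusted p = 0.895). With normexp background correction the Adcy3 difference was 0.22 and did not pass (adjusted p = 0.113). The call was also lost without any 1 of KO chimeras 2, 3, 4 and 6 or controls 2, 3, 4 and 5 (adjusted p from 0.0516 to 0.0658).

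Among PKA subunits the catalytic gene Prkacb passed. KO chimera levels lay close together, from 3.04 to 3.21 with a median of 3.11, against 3.13 to 3.60 with a median of 3.35 in controls, and 5 KO chimeras were below all controls. The difference was -0.25 ± 0.08 (1.19-fold lower, adjusted p = 0.0307). A second Prkacb probe, on the same transcript 150 bases further along, differed by 0.22 ± 0.10 in the other direction and did not pass (adjusted p = 0.104), and the mean of both probes differed by -0.01 (adjusted p = 0.933). Without any 1 of KO chimeras 3 and 5 or controls 3, 5 and 6 the Prkacb call was lost (adjusted p from 0.0514 to 0.0672). With slide as a block Prkacb differed by -0.20 (adjusted p = 0.104).

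The other PKA genes did not pass. Prkaca, which encodes the other catalytic subunit, differed by -0.03 ± 0.12 (adjusted p = 0.901). Prkar1a, the regulatory subunit gene whose loss frees PKA, had levels from 3.83 to 4.25 in KO chimeras, against 3.86 to 4.20 in controls, with medians of 4.06 and 3.96. These ranges coincided, and the difference was 0.06 ± 0.08 (adjusted p = 0.656). The remaining regulatory subunit genes Prkar1b, Prkar2a and Prkar2b differed by 0.01 ± 0.17, -0.04 ± 0.14 and -0.18 ± 0.16. Prkar2b is abundant in megakaryocytes and platelets, and its kept probes ran from -0.50 to -0.18 without passing.

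Of CREB, its relatives and coactivators, Crtc1 fell. CRTC proteins enter the nucleus when cAMP rises and bind CREB. Crtc1 levels ran from 0.21 to 0.54 with a median of 0.33 in KO chimeras and from 0.55 to 1.02 with a median of 0.74 in controls. All 8 KO chimeras lay below all 8 controls. The difference was -0.40 ± 0.08 (1.32-fold lower, adjusted p = 0.00108) and passed without any 1 of the 16 mice.

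Crtc2, the CRTC gene best known from liver, lay in the other direction. Its levels ran from 2.05 to 2.76 with a median of 2.28 in KO chimeras and from 1.98 to 2.22 with a median of 2.06 in controls, so that 6 KO chimeras exceeded every control. At 0.27 ± 0.10 it missed the threshold (adjusted p = 0.0546), and it passed without KO chimera 3 or without KO chimera 7 (adjusted p = 0.0285 and 0.0315). Crtc2 also passed in 6 of the 14 other fits, those with quantile normalization, another choice of the 75th percentile, the authors' values, a stricter filter, array weights or a variance trend. Crtc3 did not pass with its brightest probe (-0.11 ± 0.08, adjusted p = 0.386). The signal-dependent factor itself, Creb1, differed by 0.06 ± 0.10, and the acetyltransferase gene Crebbp by -0.07 ± 0.11. That Crebbp probe begins with a run of repeated agc, so whether it reads Crebbp alone is uncertain. The other kept Crebbp probe differed by -0.44 ± 0.27 without passing (adjusted p = 0.269). It was dim, above background on 6 KO chimera and 8 control arrays, and all 8 KO chimeras lay below the control median. Atf1, the closest relative of CREB, differed by 0.02 ± 0.11. The related factor gene Atf2 differed by -0.20 ± 0.09 and passed without KO chimera 4 (-0.25, adjusted p = 0.0389). The files place the brightest Atf1 probe on chromosome X and the other Atf1 probes on chromosome 15, so that the locus it reads is uncertain.

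The phosphodiesterases held the member with the smallest p. Pde4a, which breaks down cAMP in many immune cells, had levels from 0.03 to 0.36 with a median of 0.17 in KO chimeras and from 0.39 to 0.85 with a median of 0.68 in controls. No KO chimera reached the lowest control. The difference was -0.47 ± 0.08 (1.39-fold lower, adjusted p = 4.31e-04). A second Pde4a probe, chr9:21015961-21016020, fell by 0.45 ± 0.13 (adjusted p = 0.0143), with 3 KO chimeras below all controls. Both Pde4a probes passed without any 1 of the 16 mice, and the second missed the threshold with slide as a block.

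**Figure D2:**
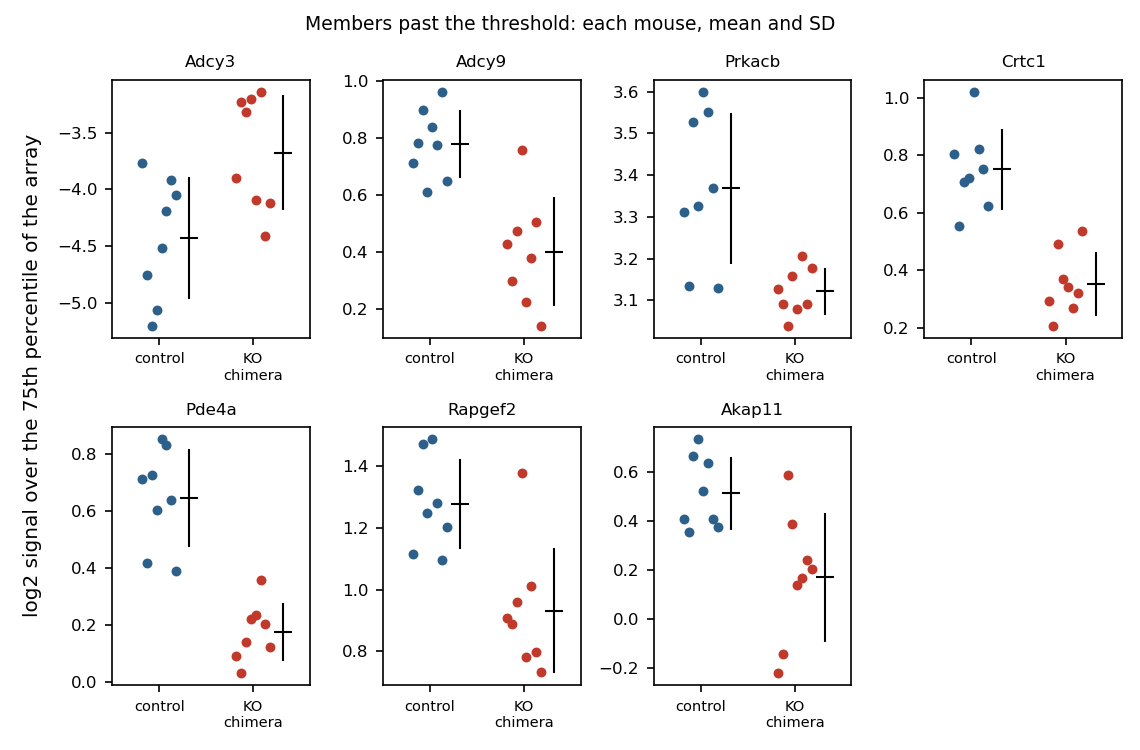
Level of each of the 7 members that passed the test in every mouse, as log2 signal over the 75th percentile of the array; points are mice (8 controls in blue, 8 KO chimeras in red) and the bars beside them are the mean and SD. Groups do not overlap for Crtc1 and Pde4a, and the Adcy3 points of the KO chimeras split into 4 high and 4 low mice.

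Pde4b, the phosphodiesterase gene that inflammatory stimuli induce in monocytes and neutrophils, did not pass with its brightest probe. Levels of that probe ran from 0.17 to 1.05 with a median of 0.42 in KO chimeras and from -0.24 to 0.80 with a median of 0.10 in controls, a difference of 0.29 ± 0.15 (adjusted p = 0.168). It passed without control 4 (0.38, adjusted p = 0.04). Both other kept probes of Pde4b rose. One, chr4:102277888-102277947, ran from -0.13 to 1.07 in KO chimeras, against -0.71 to 0.01 in controls, with 7 KO chimeras above all controls (0.77 ± 0.14, adjusted p = 7.91e-04). The other, chr4:102275988-102276046, ran from 0.31 to 1.37 in KO chimeras, against -0.85 to 0.18 in controls, and did not overlap between groups (1.00 ± 0.17, adjusted p = 4.35e-04). All 3 probes thus differed upwards, 2 of them past the threshold without any 1 of the 16 mice.

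Probes of Pde4d differed in opposite directions, and 1 of the 3 passed. The dim probe shown above, chr13:109910773-109910832, ran from -2.65 to -0.98 with a median of -1.30 in KO chimeras and from -6.87 to -3.74 with a median of -5.09 in controls. Every KO chimera lay above every control, and the probe was well above background on all 8 KO chimera arrays but on 4 control arrays. It was thus kept through the KO chimeras alone, and the size of its difference is approximate: 3.62 ± 0.37 (adjusted p = 1.68e-06); with normexp background correction it was 1.33 (adjusted p = 5.79e-08). The files assign this probe to a cDNA of the Pde4d locus, and it lies 830720 bases from the brightest Pde4d probe. That probe ran from -2.69 to -1.52 in KO chimeras, against -2.31 to -1.47 in controls, and differed by -0.36 ± 0.19 (adjusted p = 0.189). KO chimeras 1 to 4 lay below all controls, from -2.69 to -2.34, and KO chimeras 5 to 8 within the control range, from -1.91 to -1.52. The 75th percentiles of these arrays ran from 127 to 232 and from 407 to 545. A part of array signal in this split was not tested. The other kept probe, chr13:110745631-110745690, differed by -0.76 ± 0.30 (adjusted p = 0.0796), with 6 KO chimeras below all controls. On it KO chimera 2 stood apart at -5.61, where the other KO chimeras ran from -3.71 to -2.70, so the size leans on this mouse. A gene value taken as the mean of the 3 Pde4d probes was 0.83, so the direction for this gene depends on the probe.

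**Figure D3:**
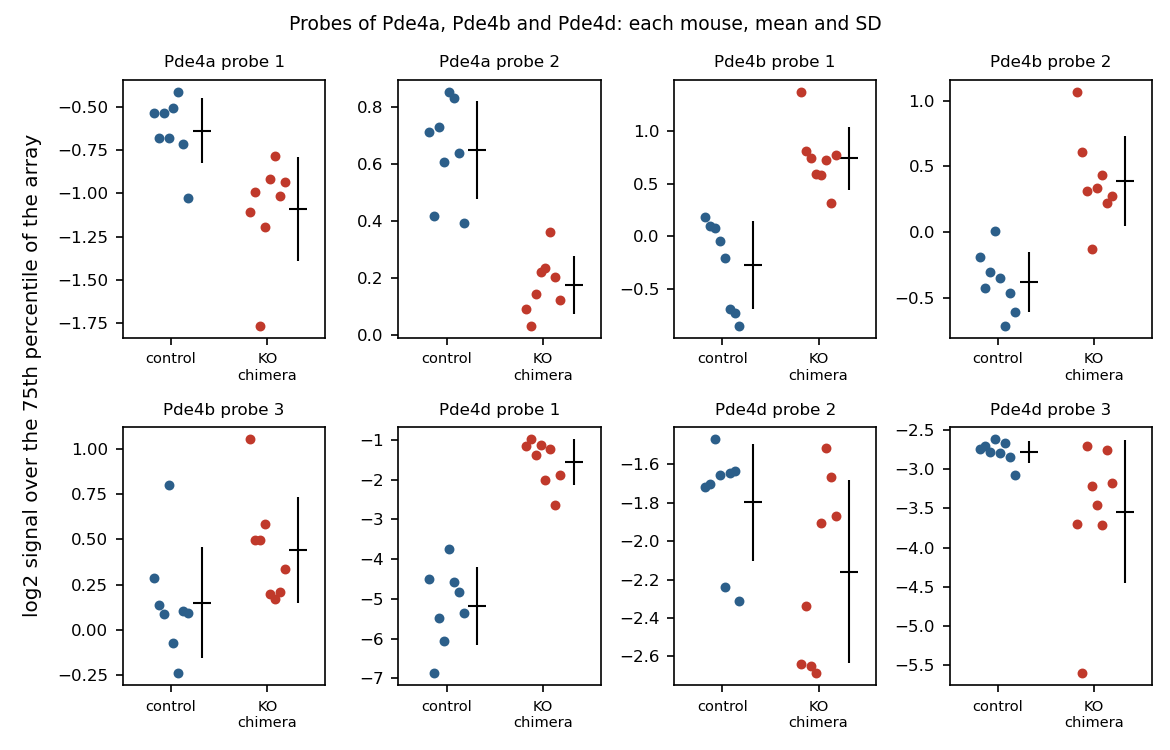
Level of each kept probe of Pde4a, Pde4b and Pde4d in every mouse, as log2 signal over the 75th percentile of the array, with the mean and SD beside the points; probes are numbered by position along the chromosome and each panel has its own axis. Pde4a probes are lower and Pde4b probes higher in KO chimeras, and Pde4d probe 1 is higher by 3.62 while Pde4d probes 2 and 3 are not.

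The other phosphodiesterase genes did not pass. Pde7a, a cAMP-specific enzyme of lymphocytes, differed by -0.29 ± 0.11 (adjusted p = 0.0784), and it passed without KO chimera 8 or without control 3 (adjusted p = 0.0463 and 0.0374) and with slide as a block (-0.39, adjusted p = 0.0327). Pde2a, which cGMP activates, Pde3b, which cGMP inhibits, and Pde8a, a high-affinity cAMP enzyme, differed by 0.06 ± 0.10, -0.09 ± 0.12 and 0.01 ± 0.13.

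Of the 4 genes that silence the receptors none passed limma's test, and 1 had an unadjusted p under 0.05. Adrbk1, the receptor kinase that phosphorylates active beta receptors, had levels from 5.29 to 5.77 with a median of 5.6 in KO chimeras and from 5.41 to 5.87 with a median of 5.69 in controls, a difference of -0.13 ± 0.09 (adjusted p = 0.329). The ranges overlapped for most mice. The beta-arrestin genes Arrb1 and Arrb2 differed by -0.11 ± 0.16 and 0.15 ± 0.11. Grk6, a kinase of chemokine receptors in blood cells, lay just outside the threshold at -0.26 ± 0.09 (adjusted p = 0.0501), with 6 KO chimeras below all controls. It passed without KO chimera 6, control 1 or control 8 (adjusted p = 0.0155, 0.0499 and 0.0363), and in 5 of the 14 other fits, those with the authors' values, a stricter filter, scan day as a block, array weights or a variance trend. A dimmer Grk6 probe differed by 0.37 ± 0.16 without passing (adjusted p = 0.11).

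Rapgef2, a Rap exchange factor with a cyclic nucleotide-binding domain, fell. Its levels ran from 0.73 to 1.38 with a median of 0.90 in KO chimeras and from 1.09 to 1.49 with a median of 1.26 in controls, and 7 KO chimeras lay below all controls. The difference was -0.35 ± 0.09 (1.27-fold lower, adjusted p = 0.0136) and passed without any 1 of the 16 mice. Rapgef3, which encodes the cAMP-gated factor Epac1, ran in the same direction (-0.25 ± 0.09, adjusted p = 0.0666) and passed without KO chimera 1 (-0.28, adjusted p = 0.0446).

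One anchoring protein gene fell. Akap11, which binds the type I and type II regulatory subunits and glycogen synthase kinase 3, had levels from -0.22 to 0.59 with a median of 0.19 in KO chimeras and from 0.36 to 0.74 with a median of 0.47 in controls. Below all controls lay 6 KO chimeras, and the difference was -0.34 ± 0.11 (1.27-fold lower, adjusted p = 0.0306). Other Akap11 probes on the same transcript differed by -0.21 ± 0.13 and 0.25 ± 0.16 and did not pass; their mean with the brightest was -0.10 (adjusted p = 0.55). The Akap11 call was lost without any 1 of KO chimeras 1 and 2 or controls 3, 4 and 6 (adjusted p from 0.0583 to 0.061). Akap1, of mitochondria, Akap8, of the nucleus, Akap9, of the centrosome and Golgi, Akap10, also of mitochondria, and Akap13, which is also a guanine nucleotide exchange factor, differed by between -0.12 and 0.08 at their brightest probes, and none passed.

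Read probe by probe, the share that passed was that of the whole array. Of its 72 kept probes 17 passed (23.6%), 7 higher and 10 lower, and 23.6% of all kept probes did (11.4% higher and 12.2% lower). More than 1 probe was kept for 19 members, and 15 members had at least 1 probe that passed. A gene with more probes has more chances to pass, and this count was not made over all genes. It can therefore not be set against the shares given for genes or for probes. For 8 members the brightest probe did not pass while a dimmer one did: Pde4b and Pde4d above, Prkar1a, Crtc3, Akap10, Akap13, Atf1 and Atf2.

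The files assign the dimmer probes of Akap10 and Prkar1a to other transcripts than the brightest, and those of Crtc3, Akap13, Atf1 and Atf2 to the same. A Crtc3 probe, chr7:87733212-87733271, ran from -0.95 to -0.40 in KO chimeras, against -0.44 to 0.26 in controls, with 6 KO chimeras below all controls, and fell by 0.70 ± 0.11 (adjusted p = 2.57e-04). An Akap13 probe, chr7:82881198-82881257, ran from 2.13 to 2.82 in KO chimeras, against 2.54 to 3.31 in controls, and fell by 0.57 ± 0.12 (adjusted p = 0.00206). Further dimmer Akap13 probes lay in the other direction without passing, at 0.37 ± 0.14 (adjusted p = 0.0611) and 0.09 ± 0.13 (adjusted p = 0.681). An Akap10 probe, chr11:61705340-61705399, fell by 0.61 ± 0.17 (adjusted p = 0.0136), with 7 KO chimeras below all controls. In the other direction, a Prkar1a probe on another transcript, chr11:109522994-109523053, rose by 1.14 ± 0.28 (adjusted p = 0.00731); it was above background on 7 KO chimera and 6 control arrays, and its difference was 0.35 with normexp background correction and still passed. An Atf1 probe, chr15:100090547-100090606, rose by 0.35 ± 0.10 (adjusted p = 0.0137). An Atf2 probe, chr2:73684290-73684349, rose by 0.52 ± 0.17 (adjusted p = 0.0381), and passed in 7 of the 16 fits without 1 mouse, but neither with normexp background correction nor with slide as a block.

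**Figure D4:**
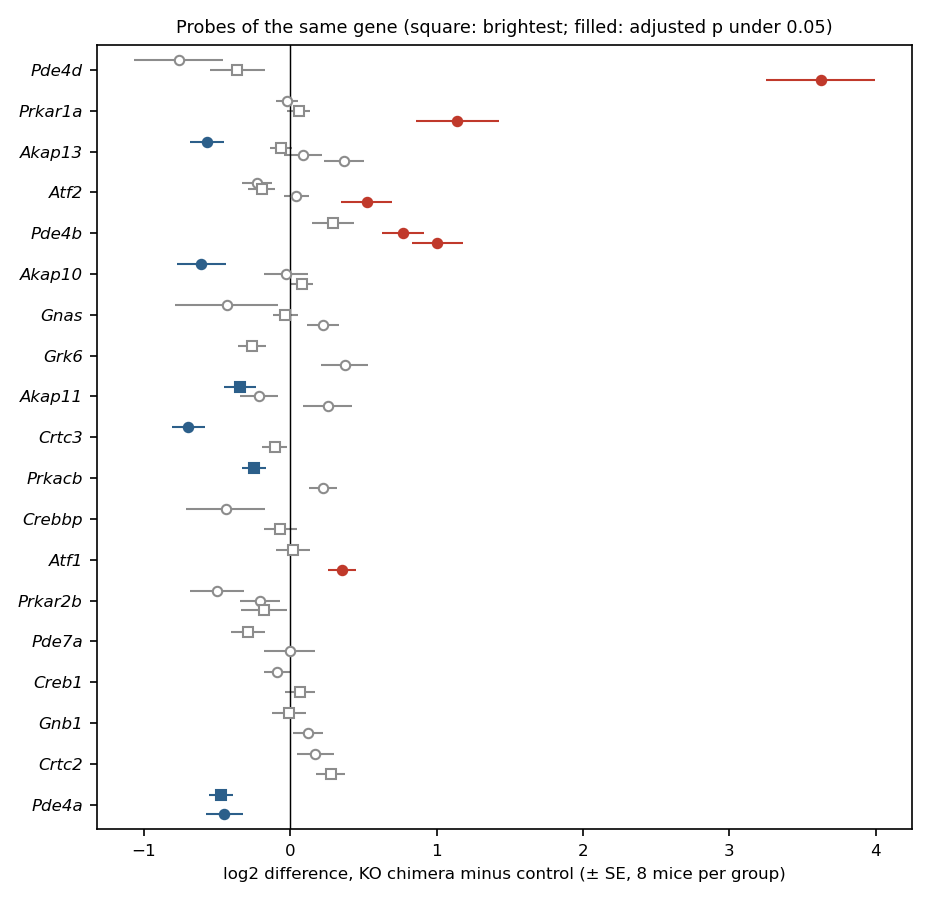
Log2 difference, KO chimera minus control, of every kept probe of the 19 members with more than 1; squares are the brightest probe of a gene, circles the others, bars ± SE, 8 mice per group, and filled symbols passed at adjusted p under 0.05. Genes are ordered by the spread between their probes, from Pde4d, whose probes run from -0.76 to 3.62, to Pde4a, whose probes agree within the SE.

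Both groups were present on 5 of the 6 slides and were split evenly over 2 scan days, 4 KO chimeras and 4 controls on each. Within the days, 4 mice against 4, 29 of the 42 members had the same direction on both (69.0%, beside 76.1% of all genes tested). So did 7 of the 7 that passed, but these were picked by a fit over the mice of both days. Their shared direction is therefore no separate test. Pde4a differed by -0.52 on scan day 1 and -0.42 on scan day 2, and Crtc1 by -0.47 and -0.33. Adcy9 and Rapgef2 differed by -0.35 and -0.27 on day 1 and by -0.40 and -0.42 on day 2. Akap11 differed by -0.33 and -0.35. Prkacb was more uneven, at -0.33 and -0.16, and Adcy3 most of all, at 1.45 and 0.06. Within day 1, 2 members passed, Adcy3 and Pde4a, where 7.0% of all genes did, and within day 2, 2 members passed, Adcy9 and Rapgef2, where 10% did. With slide as a block Adcy9, Crtc1, Pde4a, Rapgef2 and Akap11 still passed, at differences from -0.43 to -0.33, and Adcy3 did not (0.66, adjusted p = 0.08). No slide held more than 4 arrays, so no fit was made within slides.

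**Figure D5:**
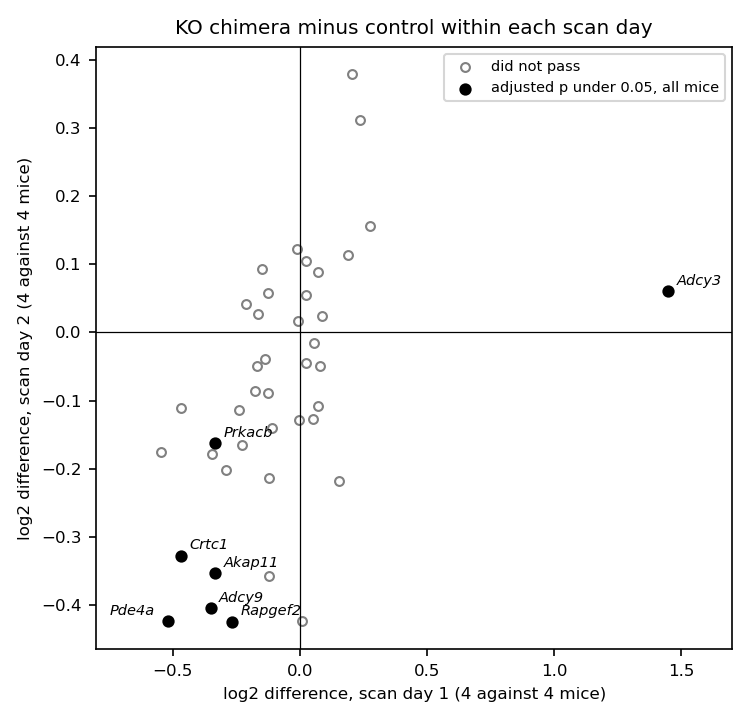
Log2 difference, KO chimera minus control, of each of the 42 members within scan day 1 (horizontal axis) and within scan day 2 (vertical axis), 4 mice against 4 on each day. The 6 members that fell (filled, named) lie below 0 on both days, and Adcy3 lies at 1.45 on day 1 and 0.06 on day 2.

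Other genes of the pathway were read from 9 lists with 119 genes, of which 90 were measured. In these, 12 genes were higher and 13 lower (27.8%, beside 22.3% of all genes), with a median difference of 0.05. Of the list of other cyclases and PKA inhibitors 3 genes were measured, none of them a cyclase. Of these 3, and of 7 other receptor kinases and arrestin-like genes, 0 passed limma's test (0 and 2 at an unadjusted p under 0.05). Among the former Prkx, a PKA-like kinase, and Pkig, a PKA inhibitor, had the smallest p (0.16 ± 0.10 and 0.15 ± 0.13), and among the latter Arrdc4 and Arrdc3, arrestin-like genes, did (0.29 ± 0.11 and 0.35 ± 0.15).

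Of 20 other G protein subunits 1 rose and 2 fell. Gnb4, a beta subunit gene, rose by 1.12 ± 0.18, from a control median of -2.30 to a KO chimera median of -1.27 (adjusted p = 1.82e-04), and the groups did not overlap. Gna13, another alpha subunit gene, fell by 0.46 ± 0.08 (adjusted p = 6.63e-04). Gng13 was well above background on 6 control arrays and on no KO chimera array, so it was kept through the controls alone. It was lower in KO chimeras, but the adjusted p of 2.52e-04 rests on KO chimera values not above background. With these raised to the lowest signal above background of their array, it was 1.51-fold lower, and this size is approximate. Of 9 other phosphodiesterases Pde10a alone passed, and it fell by 1.50 ± 0.26 (adjusted p = 4.26e-04), a size that is approximate because its probe was above background on 8 control but 4 KO chimera arrays. Of 8 other Rap genes and Rap exchange factors 2 rose and 2 fell. Rap1a, the GTPase that Epac factors load, rose by 0.46 ± 0.10, Rap2b fell by 0.49 ± 0.11 and Rap1gap, which switches Rap off, fell by 1.76 ± 0.51 (adjusted p = 0.00362, 0.00299 and 0.0194). Of 5 other AKAPs Akap7 fell, by 0.86 ± 0.17 (adjusted p = 0.00175).

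In the wider CREB family 1 of 13 genes rose and 5 fell. Creb3l2 and Creb3l1, membrane-bound factors of the endoplasmic reticulum that are activated by cleavage, fell by 1.29 ± 0.13 and 0.73 ± 0.11 (adjusted p = 1.61e-06 and 1.81e-04), both without overlap between groups. Ep300, the partner of Crebbp as an acetyltransferase, fell by 0.57 ± 0.13 (adjusted p = 0.00304).

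Genes that CREB is known to switch on had the highest share of changed genes of the 9 lists, with the Rap list next at 50%. The lists are short and were chosen with earlier results of these data known, so this order is a description only. Of 11 measured, 5 rose and 1 fell (54.5% passed, beside 22.3% of all genes tested), with a median of 0.39. Dusp1, a phosphatase of MAP kinases, ran from 6.09 to 6.76 in KO chimeras, against 5.15 to 5.83 in controls, and rose by 0.81 ± 0.11 (adjusted p = 4.06e-05). Rgs2, which shortens G protein signals, rose by 0.54 ± 0.12 (adjusted p = 0.00397), and the clock gene Per1 ran from 2.31 to 3.25 in KO chimeras, against 3.29 to 4.16 in controls, and fell by 0.98 ± 0.14 (adjusted p = 6.25e-05). Neither Dusp1 nor Per1 overlapped between groups, and they moved in opposite directions. Many other signals induce these genes too.

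Among Gs-coupled receptors, 14 of which were measured, 3 rose and 1 fell. Adrb3, another beta receptor gene, ran from -1.44 to -0.82 in KO chimeras, against -1.97 to -1.42 in controls, and rose by 0.58 ± 0.11 (adjusted p = 9.67e-04). Vipr1, a receptor for vasoactive intestinal peptide, fell by 1.73 ± 0.29 without overlap (adjusted p = 3.06e-04).

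Markers of several cell types also differed between the groups. Of 13 megakaryocyte and platelet genes, 0 rose and 10 fell, with a median of -1.03; their summed signal, in units of the 75th percentile of the array, ran from 23.8 to 56.6 in KO chimeras, against 45.3 to 84.5 in controls. Itgb3, Clec1b and Gp1ba, platelet surface receptors, fell by 1.57 ± 0.12, 2.87 ± 0.22 and 1.30 ± 0.19. Of 7 macrophage genes, 4 fell and 0 rose, among them Cd5l, Axl and C1qc (summed signal 3.14 to 5.66 against 4.78 to 8.17), and of 8 eosinophil, basophil and mast cell genes 5 fell and 0 rose, among them Hdc, Prss34 and Fcer1a (79.2 to 254 against 157 to 265). T cell genes split, with 4 of 10 lower, Zap70, Thy1 and Cd8a among them, while Cd3d rose by 2.18 ± 0.11 (31.1 to 49.9 against 38.6 to 82.7). Of 6 stem and progenitor genes 3 fell, among them Kit and Meis1, and Procr rose (9.06 to 13.4 against 11.5 to 18.7). Higher genes were found among monocyte (2 of 5, Cd14 and Ccr2, 83.9 to 154 against 69.7 to 102) and B cell markers (2 of 9, Vpreb1 and Igll1, 53.4 to 126 against 46.6 to 127).

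Among further lists, 6 NK cell genes gave Ncr1 higher and Klrd1 lower (4.22 to 8.14 against 4.99 to 7.52), and 4 endothelial genes gave Stab2 higher by 4.99 ± 0.22 and Cdh5 lower (24.9 to 37.0 against 17.8 to 27.3). Cxcl12 was the 1 of 10 stromal genes that passed, higher in KO chimeras (21.1 to 26.9 against 13.9 to 27.8). Of 14 neutrophil genes (3213 to 4799 against 3390.2 to 3945), 11 erythroid genes (796 to 1485 against 730 to 1449) and 3 adipocyte genes (2.69 to 7.32 against 2.38 to 4.59) 0 passed limma's test (2, 1 and 0 at an unadjusted p under 0.05). Among those of smallest p were Csf3r and Prtn3 (0.22 ± 0.09 and 0.39 ± 0.18), Hbb-b1 (-0.67 ± 0.43), and Lpl and Adipoq (0.55 ± 0.26 and 0.37 ± 0.21). The part of these cell types in the differences of the cAMP genes was not tested.

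Promoters of the members were searched for the letters CREB binds. RefSeq promoter windows of build GRCm38.p6, 250 bases before to 50 after a start, were found by symbol for 34 of the 42 members, with 68 windows, 1 to 6 per gene. The full element TGACGTCA was in a window of 1 member, Prkar1a (2.94% of the 34), and of 2.54% of protein-coding genes. TGACGT on either strand, which the full element contains, was in 6 members (17.6%) and in 9.60% of protein-coding genes; counted per window the shares were 10.3% and 8.49%. These were Adcy9, Akap11 and Pde4a, which fell, and Pde4b, Prkar1a and Rapgef3. The shorter TGACG, which both longer motifs contain, was in 17 members (50%) and in 26.2% of protein-coding genes; counted per window the shares were 30.9% and 23.6%. A match describes letters and does not show a site in use. The matches of the 3 members that fell, and of Pde4b and Rapgef3 for comparison, are shown 5′ to 3′ on the gene's strand with TGACGT, or ACGTCA where it is on the other strand, in capitals.
Adcy9, chr16:4420499-4420547, 24 bases before the start: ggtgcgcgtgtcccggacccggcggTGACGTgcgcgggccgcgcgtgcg
Akap11, chr14:78537052-78537107, 222 bases before the start: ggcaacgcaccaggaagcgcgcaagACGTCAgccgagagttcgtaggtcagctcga
Pde4a, chr9:21184025-21184080, 51 bases before the start: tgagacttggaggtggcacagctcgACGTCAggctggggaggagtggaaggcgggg
Pde4b, chr4:102421495-102421550, 35 bases before the start: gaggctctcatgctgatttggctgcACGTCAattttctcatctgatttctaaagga
Rapgef3, chr15:97767827-97767882, 191 bases before the start: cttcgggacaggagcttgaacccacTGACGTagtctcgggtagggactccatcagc
Among the 6 members that fell, all of them with windows, 3 held TGACGT; Crtc1, Prkacb and Rapgef2 did not have these letters in theirs.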

How the data were processed

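Sample titles gave the groups and the replicate numbers. The deposited scanner files hold a linear intensity for each spot, from which Agilent Feature Extraction had already subtracted the background (version 10.7 per the submitters' processing notes, 10.1.1.1 per the file headers). The authors' value table holds log2 values, per the labels quantile-normalized, with column medians from 4.98 to 5.00. Its columns correlated at 0.991 or more with the log2 signals of their arrays, which settles the direction and a log-like scale. A correlation does not settle the unit of that scale or the centring. Rows of the authors' table were joined to spots by number.

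Processed signals were divided by the 75th percentile of their array and taken to log2. Spots called outliers were left out, no spot was saturated, and spots of a probe were averaged. A probe was kept if 6 or more of the 8 arrays of either group had it well above background (32664 of 55681), and a gene was read from its brightest kept probe, with at least 3 values per group. Gene names and mm9 positions are those of the array files. Two-sided tests were made by limma's lmFit and eBayes (version 3.58.1, R 4.3.3) over all 23042 genes or all kept probes, with Benjamini-Hochberg adjustment and a threshold of 0.05. A pathway or marker list is described by its counts and median.

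Simulated data for this comparison held 22292 genes, 200 of them changed. Of these, 14 of 50 genes changed by 0.5 (log2), 42 of 50 by 1, 48 of 50 by 2 and 44 of 50 by -1 were recovered, with 5 false calls. In the data a far larger share passed (22.3% of genes), which makes the adjustment less strict. The simulated shares are therefore not the recovery to be had in the real comparison.

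Members, lists and alternatives were chosen with earlier results of these data known. Every member is named, with Adrb1, up to 3 changed genes by smallest p per list, or the 2 of smallest p where none passed; 2 genes that this rule names, the other targeted receptor gene among them, are not reported here. Alternatives were other normalizations, background correction, the authors' values, filters, blocks for slide, scan day or replicate number, the mean of the probes, array weights, a variance trend and leaving out each mouse.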

Additional observations from a re-analysis of the deposited data

Results flagged for a closer look

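Single mice stood apart from the other 7 of their group in 5 of 86 groups of values (42 members and Adrb1 in each of 2 groups), by the gap to the nearest mouse over the range of the group; chance gives about 1 in 20. KO chimera 4 was highest of its group for Gnai3, an inhibitory G protein subunit gene, at a level of 4.60 where the others ran from 3.64 to 3.84. It was also highest for Rapgef2, at 1.38 against 0.73 to 1.01, and for Pde3b, at 0.62 against -0.06 to 0.25. KO chimera 1 was highest for Pde4b, at 1.05 against 0.17 to 0.58. Control 4 was lowest for the dim PKA subunit gene Prkar1b, at -4.44 where the others ran from -3.67 to -3.10. KO chimera 4 had the lowest array weight of the 16, at 0.32.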

How the results depend on the processing

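Of the 7 members that passed, Adcy9, Crtc1, Pde4a and Rapgef2 passed in every fit outside the single scan days, and Prkacb, Akap11 and Adcy3 did not. The member count was 4 without a filter on dim probes, where 2181 of all 34646 genes tested were higher and 2340 lower. With array weights it was 11, where 2796 of all 23042 genes were higher and 3429 lower. It was 2 within scan day 1 and 2 within scan day 2, where 7.0% and 10% of all genes passed. Probes that passed numbered 7 and 5 within the days, and other pathway genes 11 and 14, with 4 mice per group. Leaving out 1 mouse gave 5 to 8 members, 14 to 21 probes and 24 to 29 other pathway genes. As the mean of its kept probes, Pde4d was 0.83, reversed by its dim probe. Replicate numbers did not pair the mice (correlations of same-numbered mice from -0.19 to 0.20, own number best for 1 of 8); with a replicate block 5 members, 15 probes and 25 other pathway genes passed. No scaling moved the median of all genes by over 0.1. Signal over background limits Adcy3, Adcy4, Prkar1b and the dim probes of Gnas, Pde4d and Prkar1a.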
